A study of Mus musculus with 12 samples.

Results

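The genes described here are 40 genes of mitosis and cytokinesis, the division of the chromosomes and of the cell body, in cultured mouse osteoclast precursors. They were picked by gene symbol from the 23863 genes of the count table. All 40 were found there, and all 40 passed the filter on low counts that left 13236 genes for testing. Their read counts lay between 180 and 16621 in a single library.

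Mitosis begins when Cdk1, bound to A- and B-type cyclins, becomes active. Kinesin motors and microtubule-binding proteins then build the spindle, kinetochores couple the chromosomes to it, and a checkpoint holds the anaphase-promoting complex back until every chromosome is attached. The central spindle and a contractile ring then cut the cell apart. In bone, macrophage-like precursors multiply under the growth factor M-CSF, and under RANKL they leave the cell cycle and fuse into osteoclasts, the cells that resorb bone. Most of these genes are known as late cell cycle genes, repressed by the DREAM complex and switched on by B-Myb and FOXM1.

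The study sequenced RNA from osteoclast precursors of bone marrow, sorted as CD45R- CD3- CD11b-/lo CD115+ cells from male and female RUNX1 fl/+ mice. The floxed allele was present in every library, the titles add the tag WT, and the labels used here name no Cre. The groups were female M-CSF+RANKL, female M-CSF, male M-CSF+RANKL and male M-CSF, with 3 libraries each, RANKL at 30 ng/ml and a culture of 3 days by the titles, although the growth protocol gives a longer time. The labels do not say that the replicates are separate mice or cultures, so the p-values measure the spread between these libraries, which may be technical.

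Library totals were 14303174 to 15983769 counts with M-CSF+RANKL and 10646697 to 14113420 counts with M-CSF. All 10 osteoclast markers rose with RANKL, and their summed level was 29358 to 39126 CPM (counts per 1000000 counts of a library) with M-CSF+RANKL, against 73.4 to 79.8 CPM with M-CSF. Of 11 macrophage and monocyte markers 8 fell, and Csf1r, which encodes the sorted CD115, averaged 1436 CPM with M-CSF+RANKL and 1492 CPM with M-CSF. The other lists held 2 higher of 6 stem cell and progenitor genes tested, 1 higher and 2 lower of 7 dendritic cell genes and 2 lower of 2 megakaryocyte genes. They also held 1 lower of 1 B cell gene, 1 higher of 1 T and NK cell gene, 1 higher of 1 erythroid gene, 0 of 1 mast cell gene and 1 lower of 2 stromal genes. Of all tested genes, 31.3% were called lower and 33.4% higher. In sum, the B cell genes had 0.71 to 4.43 CPM and the T and NK cell genes 0.09 to 4.26 CPM, near the floor. The B cell gene was not called in males alone (edgeR adjusted p = 0.196). None of 15 tested neutrophil and granulocyte progenitor genes moved with RANKL, but their summed level was higher in female replicates 1 and 3 of both treatments, at 212 to 394 CPM, than in the other 8 libraries, at 70.4 to 122 CPM. In bulk RNA, fewer cells of a type and less RNA per cell cannot be told apart.

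All 40 genes were lower with M-CSF+RANKL than with M-CSF over the mean of both sexes, by edgeR's quasi-likelihood test with a Benjamini-Hochberg adjusted p below 0.05. Of all 13236 genes tested, 64.7% were called in either direction, with 31.3% lower and 33.4% higher. The median log2 fold change of the 40 genes was -1.08, against 0.02 for all tested genes. The level with M-CSF+RANKL was 33.7 to 89.4% of that with M-CSF, with a median of 47.3%, and 23 genes were below 50%. Together the genes took 0.268 to 0.333% of a library's counts with M-CSF+RANKL and 0.568 to 0.699% with M-CSF. For 37 of the 40 genes, every M-CSF+RANKL library was below every M-CSF library, which held for 22.7% of all tested genes, and the exceptions were Aurka, Cdc20 and Bub1b.

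The fall was called in each sex taken alone for nearly all genes. In females 39 genes were called lower, where 25.1% of all tested genes were, and Bub1b was not. In males 38 were called lower, where 26.6% of all tested genes were, and Bub1b and Cdc20 were not. The medians of the log2 fold changes were -1.01 for females and -1.13 for males. Called in either direction were 51.9% of all genes in females and 55% in males. The authors' deposited table, which holds 10255 genes, has 39 of the 40 lower in females and 38 in males, where 27.8% of its genes were lower in females and 29.2% in males.

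**Figure D1:**
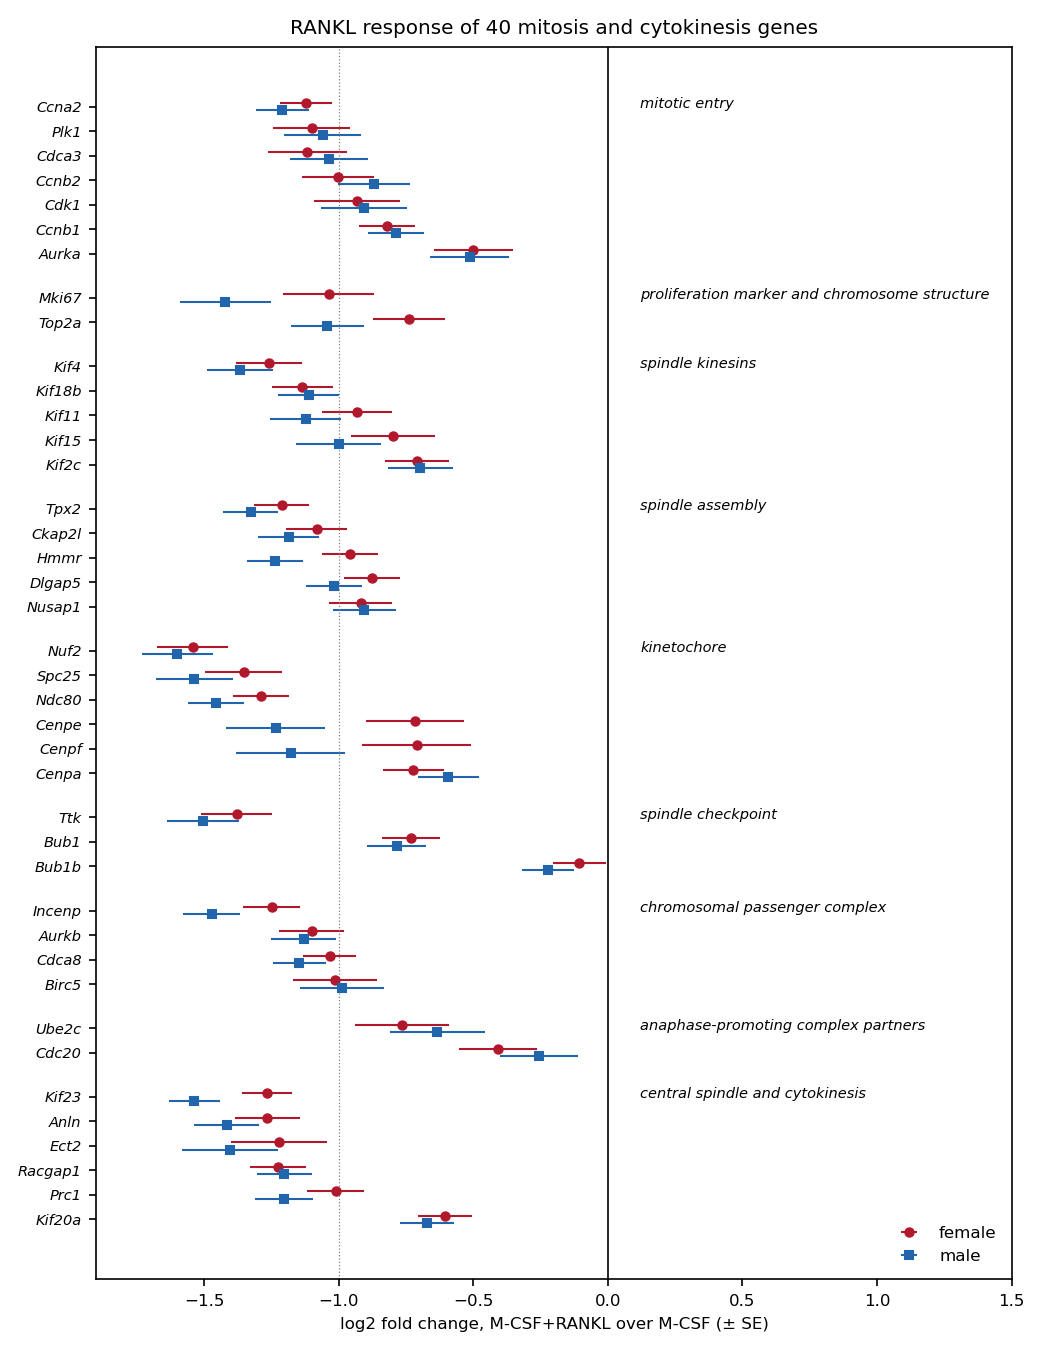
Log2 fold change of M-CSF+RANKL over M-CSF for the 40 genes, grouped by role, with females as circles and males as squares and bars of 1 SE from edgeR (n = 3 libraries per group). Every point lies below 0, from Nuf2 in males at -1.60 to Bub1b in females at -0.11, and the dotted line marks -1.

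The promoters are shown because the genes moved together and because late cell cycle genes are known for a pair of elements near the start site. These are the cell cycle genes homology region (CHR), searched as TTTGAA or TTCGAA, and the CCAAT box, searched as CCAAT, each on both strands, where matches of both motifs can share a base. RefSeq promoters of build GRCm38.p6, 250 bases before to 50 after the start, matched 34 of the 40 genes. A CHR match was found in 29 of the 34 (85.3%), against 21.7% of all 27025 genes in the table and 16.5% of 9752 tested genes outside the list. Within 50 bases of the start it was found in 79.4% of the 34 and in 6.12% of all genes. A CCAAT match was found in 79.4% of the 34 and in 41.1% of all genes, and both motifs in 73.5% of the 34 and in 9.65% of all genes. An E2F-like motif, searched as TTTCGCGC, TTTGGCGC or TTTCCCGC on both strands, was found in 2 of the 34 (5.88%) and in 2.12% of all genes. Many of these genes are known as CHR genes, and the shares describe the list and use no RNA value. A match is a run of letters and not a shown site of binding.

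Below are 150 bases, 100 before and 50 after the start, written 5′ to 3′ on the gene's strand with matches to either motif in capitals. They cover the genes with the largest and the smallest falls, and Cdk1 and Plk1 as the kinases of mitotic entry.
Nuf2, chr1:169531415-169531564, minus strand: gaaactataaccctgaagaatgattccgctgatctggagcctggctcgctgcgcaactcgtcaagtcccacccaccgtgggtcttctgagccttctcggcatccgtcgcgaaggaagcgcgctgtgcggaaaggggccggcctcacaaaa
Spc25, chr2:69206164-69206313, minus strand: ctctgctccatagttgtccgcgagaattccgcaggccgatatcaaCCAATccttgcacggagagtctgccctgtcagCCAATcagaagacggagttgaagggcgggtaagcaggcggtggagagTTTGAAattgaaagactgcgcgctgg
Ttk, chr9:83834589-83834738, plus strand: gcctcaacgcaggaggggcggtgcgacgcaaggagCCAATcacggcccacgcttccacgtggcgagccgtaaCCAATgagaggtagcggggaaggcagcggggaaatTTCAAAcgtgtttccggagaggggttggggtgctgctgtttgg
Aurka, chr2:172370521-172370670, minus strand: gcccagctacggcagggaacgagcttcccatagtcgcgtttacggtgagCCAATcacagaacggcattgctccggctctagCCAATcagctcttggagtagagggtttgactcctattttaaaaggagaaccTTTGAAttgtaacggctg
Cdc20, chr4:118437294-118437443, minus strand: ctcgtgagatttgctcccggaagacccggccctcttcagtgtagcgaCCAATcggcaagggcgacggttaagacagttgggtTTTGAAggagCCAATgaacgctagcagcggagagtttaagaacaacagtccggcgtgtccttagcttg
Bub1b, chr2:118598111-118598260, plus strand: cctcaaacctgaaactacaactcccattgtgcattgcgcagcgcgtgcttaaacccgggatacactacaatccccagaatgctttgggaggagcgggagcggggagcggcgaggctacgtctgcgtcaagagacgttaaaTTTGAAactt
Cdk1, chr10:69352863-69353012, minus strand: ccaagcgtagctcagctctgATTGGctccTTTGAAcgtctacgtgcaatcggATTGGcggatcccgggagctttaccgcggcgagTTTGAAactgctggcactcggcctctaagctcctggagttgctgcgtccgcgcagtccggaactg
Plk1, chr7:122159335-122159484, plus strand: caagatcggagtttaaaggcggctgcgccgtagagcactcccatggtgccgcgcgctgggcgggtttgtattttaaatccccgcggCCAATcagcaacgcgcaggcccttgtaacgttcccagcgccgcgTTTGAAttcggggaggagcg
The Nuf2 window held neither motif, and Nuf2 fell most. Bub1b, which fell least, held a CHR match 41 bases after the start. Spc25, Ttk, Aurka and Cdc20 each held 1 CHR and 2 CCAAT matches in the window. Their log2 fold changes were -1.44, -1.44, -0.51 and -0.33. Over the 34 genes, the median log2 fold change was -1.08 in the 29 with a CHR match and -0.98 in the 5 without, which were Nuf2, Birc5, Cenpe, Nusap1 and Ccnb1. Whether the motifs bear on the size of the fall was not tested.

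**Figure D2:**
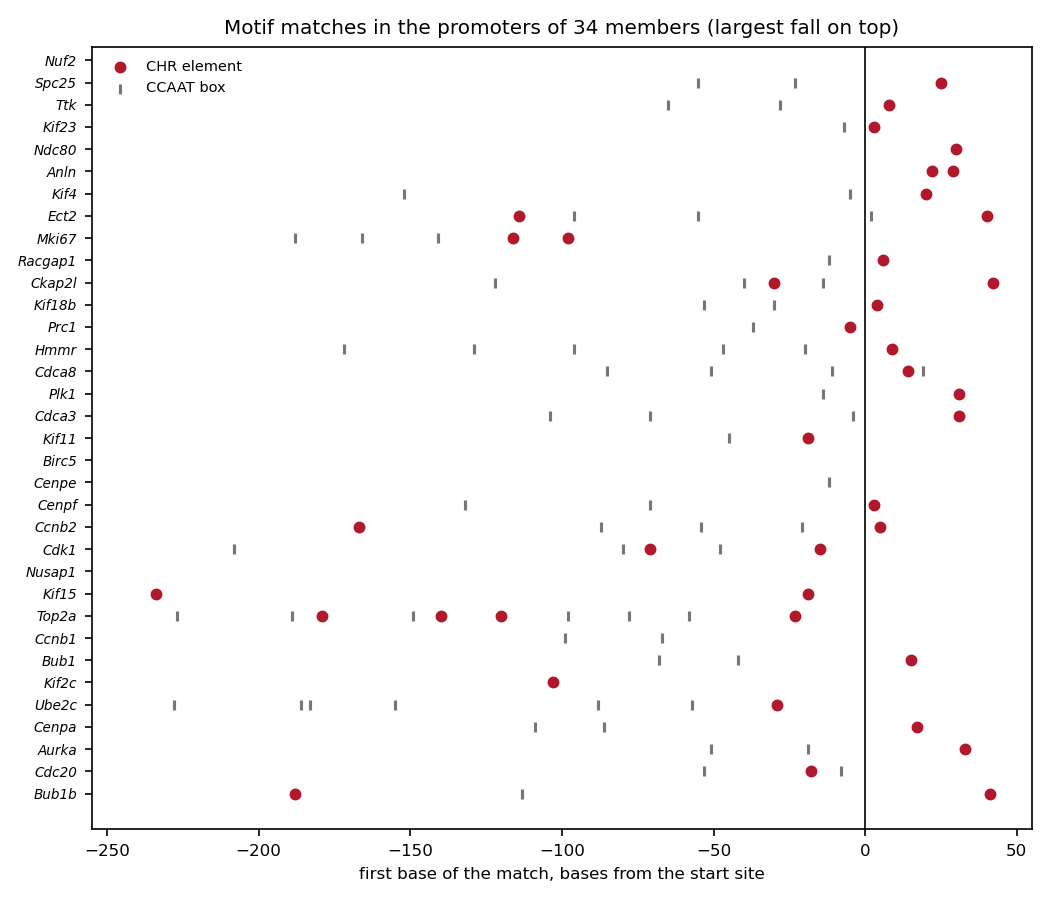
First base of each CHR match (dots) and CCAAT match (bars) in the promoters of 34 genes, in bases from the RefSeq start site, with the largest fall on top. Of 40 CHR matches, 29 lie within 50 bases of the start, in genes with large and with small falls.

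The genes of mitotic entry number 7, and all 7 fell with a median log2 fold change of -0.93. Cdk1, the kinase that starts mitosis, had 109, 157 and 127 CPM in female M-CSF+RANKL libraries, against 217, 247 and 286 CPM in female M-CSF libraries. In males it had 134, 115 and 91.4 CPM with M-CSF+RANKL, against 221, 194 and 222.5 CPM with M-CSF. Every M-CSF+RANKL library was below every M-CSF library, and the log2 fold change was -0.92 ± 0.11 (SE, adjusted p = 6.78e-06). Its cyclins fell by different amounts. The A-type cyclin Ccna2 changed by -1.17 ± 0.07, and the B-type cyclins Ccnb2 and Ccnb1 by -0.93 ± 0.09 and -0.80 ± 0.07. Plk1, the kinase that drives entry and later steps of mitosis, averaged 48.1 ± 6.97 CPM with M-CSF+RANKL and 102 ± 9.67 CPM with M-CSF (SD, n = 6 each). Cdca3, a trigger of mitotic entry, averaged 76.6 ± 13.9 CPM with M-CSF+RANKL and 162 ± 16.3 CPM with M-CSF, and both genes changed by -1.08 on the log2 scale.

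Aurka, the kinase of centrosome maturation, moved least of the entry genes. It had 64.4, 87.8 and 70.5 CPM in female M-CSF+RANKL libraries, against 98.8, 111 and 105 CPM in female M-CSF libraries. In males the M-CSF+RANKL libraries held 74.7, 60.5 and 51.7 CPM, against 98.5, 78.7 and 89.6 CPM with M-CSF. The treatments did not overlap within either sex, while over both sexes the highest M-CSF+RANKL library was above the lowest M-CSF library. Its log2 fold change was -0.51 ± 0.10 (adjusted p = 0.000679). In females alone it was -0.50 (adjusted p = 0.011), and without female M-CSF+RANKL replicate 1 it was -0.40 (adjusted p = 0.0611).

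**Figure D3:**
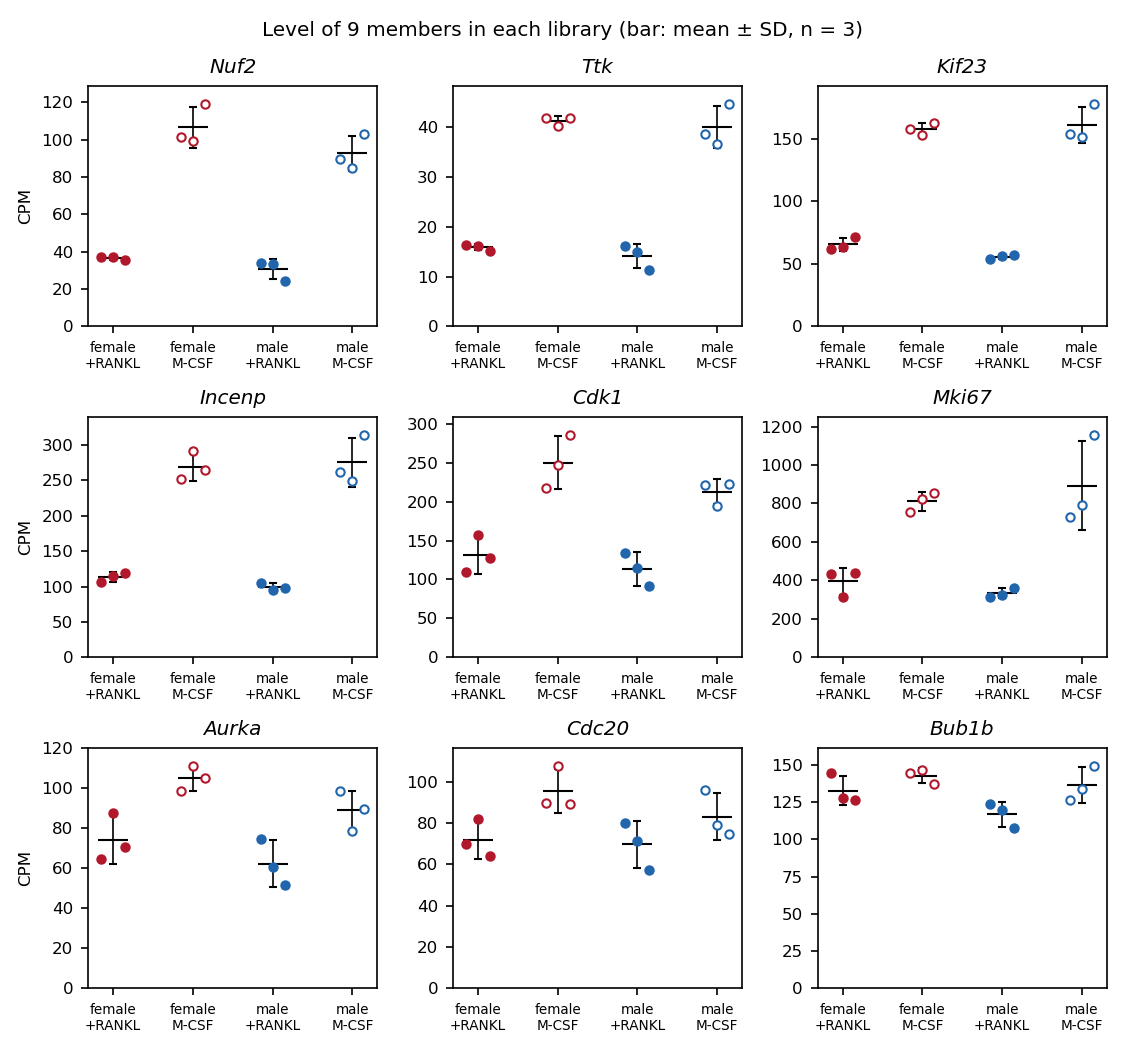
CPM of 9 of the genes in each of the 12 libraries, with M-CSF+RANKL filled and M-CSF open, females red and males blue, and bars for the mean ± SD (n = 3). The treatments are apart in Nuf2, Ttk, Kif23, Incenp, Cdk1 and Mki67 and overlap in Aurka, Cdc20 and Bub1b.

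Mki67 and Top2a, a marker of dividing cells on the chromosome surface and the topoisomerase that untangles chromosomes, had the highest CPM of the 40 genes. Mki67 had 432, 315 and 438 CPM in female M-CSF+RANKL libraries, against 753, 825 and 853 CPM in female M-CSF libraries. Male libraries held 314, 326 and 361 CPM with M-CSF+RANKL, against 730, 792 and 1157 CPM with M-CSF. No library of one treatment reached the range of the other, and the highest value was that of male M-CSF replicate 3. The log2 fold change was -1.23 ± 0.12 (adjusted p = 6.43e-07). Top2a averaged 334 ± 44.8 CPM with M-CSF+RANKL and 617 ± 82.4 CPM with M-CSF, a log2 fold change of -0.89 ± 0.10.

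The kinetochore genes Nuf2 and Spc25 had the largest falls of the 40. All 6 kinetochore genes fell, with a median of -1.17. Nuf2, a subunit of the microtubule-binding Ndc80 complex (chr1:169497934-169531464, minus strand, 14 merged exons), had 37.2, 37.1 and 35.5 CPM in female M-CSF+RANKL libraries, against 102, 99.0 and 119 CPM in female M-CSF libraries. The male values were 33.9, 33.4 and 24.5 CPM with M-CSF+RANKL, against 89.7, 85.0 and 103 CPM with M-CSF. The treatments were far apart in both sexes, and M-CSF+RANKL libraries held 33.7% of the M-CSF level. Its log2 fold change was -1.57 ± 0.09 (adjusted p = 4.33e-09). The other Ndc80 complex subunits Spc25 and Ndc80 changed by -1.44 ± 0.10 and -1.37 ± 0.07. Cenpa, the histone that marks the centromere, changed by -0.66 ± 0.08, with 68.8 ± 6.12 CPM with M-CSF+RANKL and 109 ± 10.4 CPM with M-CSF.

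Cenpe, a kinetochore motor, and Cenpf, a large kinetochore protein, fell by 0.97 and 0.94 on the log2 scale with wide spread. Cenpe had 83.8, 55.7 and 79.6 CPM in female M-CSF+RANKL libraries, against 124, 132 and 103 CPM in female M-CSF libraries. In males it had 55.6, 65.2 and 73.4 CPM with M-CSF+RANKL, against 121, 148 and 188 CPM with M-CSF. Its change was -0.72 ± 0.18 in females and -1.23 ± 0.18 in males, and that of Cenpf -0.71 ± 0.20 and -1.18 ± 0.20. For neither gene was the difference of the sexes called.

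The 3 spindle checkpoint genes fell by very different amounts. Ttk, the kinase that recruits the checkpoint to kinetochores, averaged 15.0 ± 1.85 CPM with M-CSF+RANKL and 40.6 ± 2.84 CPM with M-CSF, a log2 fold change of -1.44 ± 0.09. Bub1, a checkpoint kinase, changed by -0.76 ± 0.08. Bub1b, which encodes the checkpoint protein BubR1, had 144, 128 and 127 CPM in female M-CSF+RANKL libraries, against 145, 147 and 138 CPM in female M-CSF libraries. Male libraries held 124, 120 and 108 CPM with M-CSF+RANKL, against 126, 134 and 150 CPM with M-CSF. The treatments overlapped in females and lay next to each other in males. Its log2 fold change of -0.16 ± 0.07 was at the threshold (adjusted p = 0.0492). The call was lost with RLE size factors (adjusted p = 0.0606), without the low count filter (adjusted p = 0.0931) and with at least 1 CPM in 6 libraries (adjusted p = 0.055). It was also lost with 9 of the 12 libraries left out in turn, while DESeq2, plain library sizes and the replicate block kept it. In females alone the log2 fold change was -0.11 (adjusted p = 0.388) and in males -0.22 (adjusted p = 0.0664).

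The 2 partners of the anaphase-promoting complex, which tags mitotic proteins for destruction, had the smallest median fall of the role groups, at -0.52. Cdc20, its mitotic activator, had 69.8, 82.1 and 64.2 CPM in female M-CSF+RANKL libraries, against 89.8, 108 and 89.2 CPM in female M-CSF libraries. The male values were 80.1, 71.5 and 57.5 CPM with M-CSF+RANKL, against 95.9, 79.0 and 74.5 CPM with M-CSF. The treatments were apart in females and overlapped in males. The log2 fold change was -0.33 ± 0.10 (adjusted p = 0.0114), and in males alone -0.25 (adjusted p = 0.157, or 0.0156 with the replicate number as a block). Without female replicates 1 and 3, which leaves 1 library in each female group, the Cdc20 value over both sexes was -0.33. Ube2c, the ubiquitin-conjugating enzyme of the complex, changed by -0.70 ± 0.12.

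All 5 spindle kinesins fell. Kif4, the chromokinesin on the X chromosome, changed by -1.31 ± 0.09, Kif18b by -1.12 ± 0.08 and Kif11, which pushes the spindle poles apart, by -1.03 ± 0.09. Kif15, which can stand in for Kif11, and Kif2c, which takes microtubules apart, changed by -0.90 ± 0.11 and -0.70 ± 0.08. Kif11 averaged 91.1 ± 10.8 CPM with M-CSF+RANKL and 185 ± 21.8 CPM with M-CSF.

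The 5 spindle assembly genes also fell, within a narrower range of -1.27 to -0.91. Tpx2, the activator of Aurora A on the spindle, averaged 85.6 ± 9.03 CPM with M-CSF+RANKL and 206 ± 16.5 CPM with M-CSF, a change of -1.27 ± 0.07. Ckap2l and Hmmr changed by -1.13 ± 0.08 and -1.10 ± 0.07. Dlgap5, which stabilizes kinetochore fibres, and Nusap1, which bundles microtubules, changed by -0.95 ± 0.07 and -0.91 ± 0.08.

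The chromosomal passenger complex corrects faulty attachments and then moves to the central spindle. All 4 of its genes fell by similar amounts, with a median of -1.10. Its scaffold Incenp had 106, 115 and 119 CPM in female M-CSF+RANKL libraries, against 252, 292 and 264 CPM in female M-CSF libraries, and changed by -1.36 ± 0.08. The kinase Aurkb averaged 44.3 ± 5.52 CPM with M-CSF+RANKL and 95.8 ± 9.47 CPM with M-CSF, a change of -1.11 ± 0.09. Cdca8, which encodes borealin, changed by -1.09 ± 0.07 and Birc5, which encodes survivin, fell to 72.3 ± 12.6 CPM with M-CSF+RANKL, against 145 ± 17.7 CPM with M-CSF.

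The central spindle and cytokinesis genes had the lowest median of the role groups, at -1.26, and all 6 fell. Kif23, the kinesin of centralspindlin, had 62.2, 63.5 and 71.3 CPM in female M-CSF+RANKL libraries, against 158, 153 and 162.5 CPM in female M-CSF libraries. In males it had 53.6, 56.2 and 57.2 CPM with M-CSF+RANKL, against 154, 152 and 178 CPM with M-CSF. The replicates lay close together, and the change was -1.40 ± 0.07 (adjusted p = 4.82e-10). Its partner Racgap1 changed by -1.21 ± 0.07, the RhoA activator Ect2 by -1.31 ± 0.13 and the ring scaffold Anln by -1.34 ± 0.09. Prc1, which bundles the central spindle, changed by -1.11 ± 0.08. Kif20a, a kinesin of the central spindle, fell by 0.64 ± 0.07, with 58.8 ± 4.91 CPM with M-CSF+RANKL and 91.4 ± 6.77 CPM with M-CSF.

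The unequal falls can also be written as ratios between related genes, which restate the fold changes given above. Within a library, the log2 ratio of Kif20a to Kif23 was -0.28 to 0.17 with M-CSF+RANKL and -0.93 to -0.63 with M-CSF. That of Bub1b to Bub1 was 0.69 to 1.02 with M-CSF+RANKL and 0.17 to 0.41 with M-CSF. Aurka to Aurkb gave 0.50 to 0.74 with M-CSF+RANKL and -0.10 to 0.14 with M-CSF, and Cdc20 to Ube2c gave -0.64 to -0.30 with M-CSF+RANKL and -0.87 to -0.74 with M-CSF. In these 4 pairs no library of one treatment reached the other's range. How often other gene pairs separate in this way was not counted. The ratio of Ndc80 to Nuf2, subunits of 1 complex, overlapped, at -0.30 to -0.06 with M-CSF+RANKL and -0.64 to -0.27 with M-CSF. That of Ccnb1 to Ccnb2 also overlapped, at -0.03 to 0.30 with M-CSF+RANKL and -0.13 to 0.10 with M-CSF. The pairs were chosen after their values were seen and were not tested. A ratio within a library does not depend on how the library was scaled.

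Per length (counts per kb of merged exons, scaled to the same total in each library), the median level of the 40 genes was 39.6 with M-CSF+RANKL and 80.6 with M-CSF, while over all tested genes it was 15.8 with M-CSF+RANKL and 16.6 with M-CSF. By merged exons Ccnb2 had the highest level per length under both treatments, 138 ± 13.3 with M-CSF+RANKL and 276 ± 22.1 with M-CSF (SD, n = 6 each). Mki67 followed with M-CSF, at 112 ± 22.1 with M-CSF+RANKL and 272 ± 62.1 with M-CSF, and its level with M-CSF differed from that of Ccnb2 by less than the spread. The order depends on the length used: by the longest transcript Top2a was highest, at 151 with M-CSF+RANKL and 287 with M-CSF, where Ccnb2 had 105 with M-CSF+RANKL and 209 with M-CSF. Cdc20 ranked 2 with M-CSF+RANKL, at 116 ± 10.9, and 8 with M-CSF. Cenpf was lowest, at 9.27 ± 2.06 with M-CSF+RANKL and 18.7 ± 5.19 with M-CSF. Exons of 10 of the 40 genes overlap a gene on the other strand in the annotation, most of all Kif20a, which shares 29.3% of its exon length with Cdc23, and Ube2c, which shares 22.8% with Tnnc2. Whether counting used the strand is not given in the sources used here. Reads of such partners may thus not be told apart, nor those of Ccnb1, Ccnb2 and Kif4 from their named pseudogenes.

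Other genes of the cell cycle were listed by role, and most fell as well. All 8 condensin genes, which compact chromosomes, were called lower, with a median log2 fold change of -0.98. The largest were Ncaph (-1.33 ± 0.08), Ncapg (-1.23 ± 0.12) and Smc2 (-1.12 ± 0.13). Of 32 other spindle and centrosome genes 30 were lower and 0 higher, led by Psrc1, a microtubule regulator, at -1.78 ± 0.17, and then Gtse1 and Kif14. Of 29 other kinetochore genes 26 were lower and 0 higher, led by Cenpu (-1.36 ± 0.11), Cenph and Nsl1, a member of the Mis12 complex. Of 9 other checkpoint genes 6 were lower, led by Kntc1 (-1.33 ± 0.12), Spdl1 and Zw10, while Mad1l1 was higher at 0.69 ± 0.08. These counts stand beside 31.3% of all tested genes called lower.

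The regulators of entry and transcription followed with exceptions, where 31.3% of all tested genes were called lower and 33.4% higher. Of 16 entry regulators 12 were lower, led by the Greatwall kinase gene Mastl (-1.69 ± 0.11), the phosphatase gene Cdc25b (-1.54 ± 0.08) and the kinase gene Pbk (-1.40 ± 0.10). The 3 called higher were Arpp19 at 0.65 ± 0.09 and Ensa at 0.36 ± 0.08, which encode the proteins that Greatwall phosphorylates, and Ccnf at 0.19 ± 0.07. Mastl and its substrates thus moved in opposite directions. Of 18 FOXM1 and DREAM genes 15 were lower and 0 higher. E2f2 (-2.05 ± 0.10), the repressor E2f7 (-1.67 ± 0.09) and Rb1 (-1.37 ± 0.14) changed most.

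For the anaphase-promoting complex and the general cytokinesis machinery the share called lower was near that of all tested genes (31.3%), and the share called higher was under that of all tested genes (33.4%). Of 17 core genes and regulators of the anaphase-promoting complex 6 were lower and 3 higher, with a median of -0.14. Fbxo5, which encodes the inhibitor Emi1, changed by -1.43 ± 0.10, Anapc5 by -0.94 ± 0.06 and Anapc13 by 0.83 ± 0.13. Fzr1, the activator that follows Cdc20 late in mitosis, was higher at 0.25 ± 0.09, as was Anapc7 at 0.15 ± 0.06. Of 15 cohesin genes 8 were lower, led by the protector Sgo1 (-1.29 ± 0.09), Cdca5 and Esco2, and 2 were higher, Espl1, the gene of separase, at 0.35 ± 0.08 and Smc1a at 0.28 ± 0.08. Of 26 other cytokinesis genes 9 were lower and 3 higher, with a median of -0.13. The largest falls were those of the septin gene Sept6 (-1.81 ± 0.07), Ccdc69 (-1.44 ± 0.16) and the scaffold gene Iqgap3 (-1.29 ± 0.08), while the septins Sept9 and Sept11 were higher at 0.90 ± 0.06 and 0.86 ± 0.08, as was the abscission gene Chmp4b at 0.38 ± 0.08.

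The phases before mitosis mostly moved in the same direction, where 31.3% of all tested genes were called lower and 33.4% higher. Of 44 DNA replication genes 40 were lower, with a median of -0.81, led by the sliding clamp gene Pcna (-1.86 ± 0.08), Gins1 and Gins2, and only the licensing gene Cdt1 was called higher, at 0.26 ± 0.08. Of 16 G1 cyclins, CDKs and CDK inhibitors 12 were lower. Ccnd1, the cyclin induced by growth factors, averaged 81.4 CPM with M-CSF+RANKL and 460 CPM with M-CSF, a change of -2.50 ± 0.13. The inhibitor genes split. Cdkn1a (-1.94 ± 0.11) and Cdkn2d (-1.73 ± 0.09) were lower, and Cdkn1b was higher at 1.01 ± 0.15, as was Cdkn2b at 0.51 ± 0.15.

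**Figure D4:**
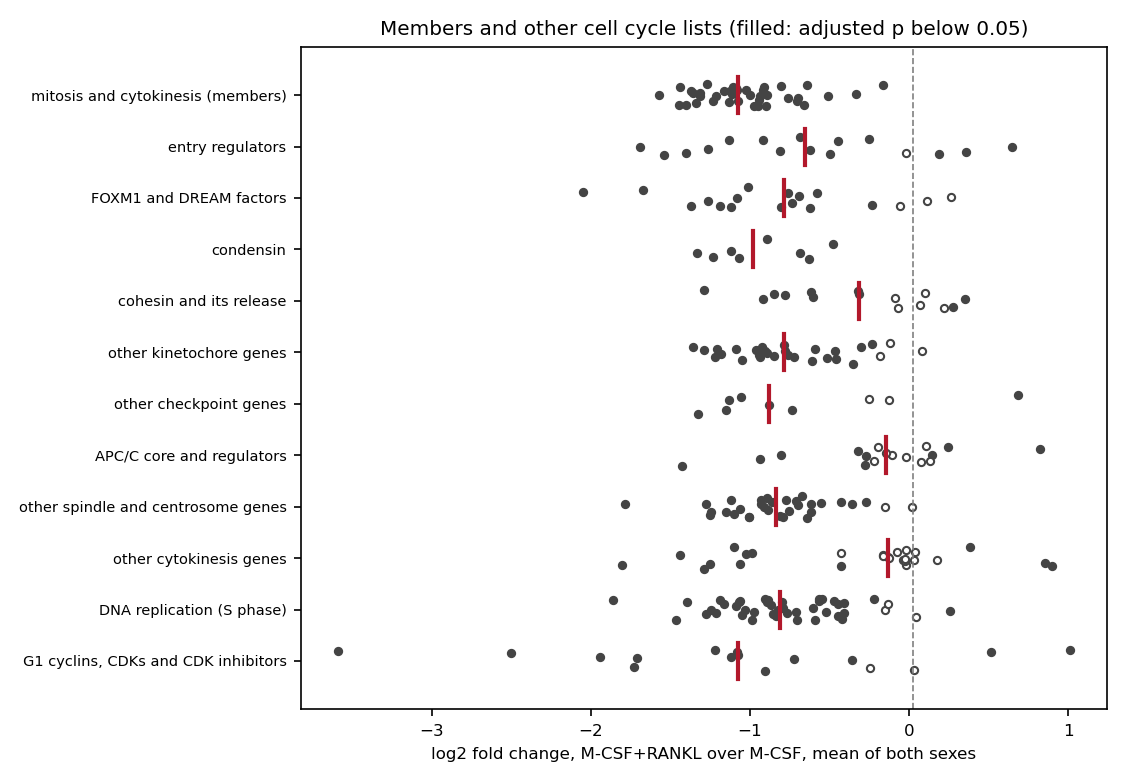
Log2 fold change of M-CSF+RANKL over M-CSF, mean of both sexes, for each gene of the 40 and of 11 other cell cycle lists, with filled points for adjusted p below 0.05 and a red bar for the list's median. The dashed line is the median of all tested genes at 0.02, and the lists for the anaphase-promoting complex and other cytokinesis genes have the medians nearest to it.

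No gene of the 40 was called between the sexes. In M-CSF, edgeR called 0 of the 40 for female against male, where 0.0453% of all tested genes were called, and 0 had an unadjusted p below 0.05 (3.61% of all tested genes), as with DESeq2. The count at that unadjusted p was 2 without male M-CSF replicate 1. The log2 difference was above 0 in 29 genes (48.5% of all tested genes), with a median of 0.08. That median was 0.04 without male M-CSF replicate 2 and 0.14 without male M-CSF replicate 3. The smallest p-values were those of Cenpe at -0.34 ± 0.18, Nusap1 at 0.21 ± 0.12 and Cdca3 at 0.24 ± 0.14, all with an adjusted p of 0.873.

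In M-CSF+RANKL, edgeR again called 0 of the 40, where 0.0529% of all genes were called. An unadjusted p below 0.05 was reached by 4 genes, against 3.36% of all tested genes, and by 3 with DESeq2. That count was 7 without male M-CSF+RANKL replicate 1 and 1 without either male M-CSF+RANKL replicate 2 or 3. All 40 log2 differences were above 0, against 48.4% of all tested genes, with a median of 0.18 and a range of 0.01 to 0.26. The smallest p-values belonged to Kif23 (0.24 ± 0.09), Dlgap5 (0.26 ± 0.10) and Cdca8 (0.24 ± 0.10), each with an adjusted p of 0.9999. The genes share libraries and move together, so the count of 40 is not 40 observations. It was 34 to 40 with 1 library left out. It was 32 without female replicates 1 and 3 of both treatments, the libraries with more granulocyte RNA, which left 1 library in each female group. The 95% interval of the female against male difference lay within 2-fold for all 40 genes under both treatments.

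The RANKL response was not called different between the sexes for any of the 40 genes. The response in females minus that in males was called by edgeR in 0 of 13236 genes, 0%, with 260 genes (1.96%) at an unadjusted p below 0.05 and 0 called by DESeq2. None of the 40 reached an unadjusted p below 0.05 in this fit, and 0 did with DESeq2. That count was 3 with the replicate number as a block and 3 without female M-CSF+RANKL replicate 2. The difference of the responses was above 0, a smaller fall in females, in 27 genes, against 51.3% of all tested genes. Its median was 0.11. Kif23 at 0.27 ± 0.13, Cenpe at 0.52 ± 0.26 and Hmmr at 0.28 ± 0.15 had the smallest p-values, and their 95% intervals ran from -0.01 to 0.55, from -0.04 to 1.07 and from -0.03 to 0.60. The interval lay within 2-fold for 38 of the 40 genes. Across the 40 genes, the female and male responses correlated with Pearson's r at 0.889 and Spearman's rho at 0.84, a description over genes that share these libraries.

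The spread between replicates followed transcript length in part of the libraries, and little in female M-CSF. Deviations are taken from a group's own mean, so the signs of its libraries depend on each other. Over the 40 genes, the deviation of a library from its group mean had a Spearman rho with the longest annotated transcript of 0.52, -0.68 and 0.63 in female M-CSF+RANKL and of 0.04, -0.14 and 0.19 in female M-CSF. In males it was -0.71, -0.06 and 0.65 with M-CSF+RANKL and -0.74, 0.07 and 0.75 with M-CSF. Over 13233 genes with a length the sign was the same in each library where the 40 genes passed 0.5 in size, with 0.45, -0.50 and 0.21 in female M-CSF+RANKL. In male M-CSF replicate 3 the 20 longer members were 0.20 above their group mean and the 20 shorter members 0.05, on the log2 scale. There the long gene Cenpe had its highest level in replicate 3 and the short gene Cdc20 in replicate 1.

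**Figure D5:**
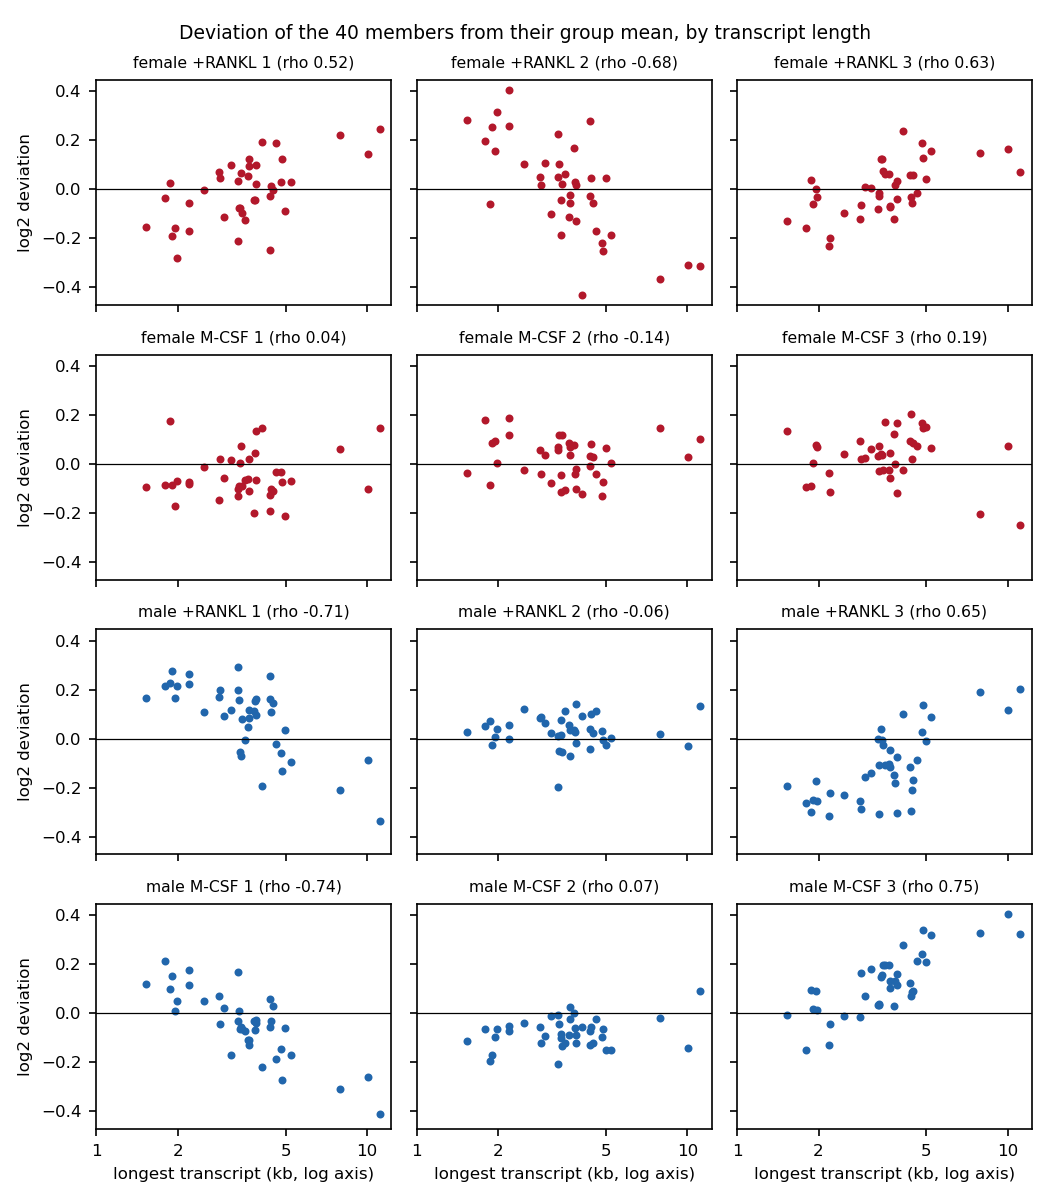
Deviation of each of the 40 genes from its group mean (log2 CPM) against the longest annotated transcript (kb, log axis), with 1 panel per library, females red and males blue. The points climb in male M-CSF replicate 3 (rho 0.75) and descend in male M-CSF replicate 1 (rho -0.74), while the female M-CSF libraries show little slope.

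Over the mean of both sexes, the median RANKL response was -1.06 in the 20 longer and -1.08 in the 20 shorter members. In females it was -0.94 in the longer and -1.06 in the shorter members, and in males -1.20 in the longer and -1.05 in the shorter members. The sex difference in M-CSF also differed by length, with a median of 0.02 in the longer and 0.14 in the shorter members, as did the difference of the responses, with 0.16 in the longer and 0 in the shorter members. After correction of each library for transcript length, 39 genes were called lower over both sexes, with a median of -1.09, and Bub1b was not (adjusted p = 0.0506).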

How the data were processed

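Sorted osteoclast precursors gave 12 RNA libraries in 4 groups of 3, made with an RNeasy Plus kit and a stranded poly(A) kit, per the labels' protocols. Tools named in the submitters' processing notes are fastp, STAR 2.7.3a and edgeR, with mm10 as the build. How reads were counted, with which strand setting and annotation, is not given in the sources used here. The authors deposited read counts, as whole numbers, for 23863 genes, log2 CPM of a filtered set, and log2 fold changes with p-values of their own comparisons, which are quoted only where named.

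Everything else was computed from the deposited counts in R 4.3.3 with edgeR 4.0.16, limma 3.58.1 and the data.table package, version 1.17.8. Genes were kept by filterByExpr (minimum count 10, 4 groups), scaled by TMM, and fitted over all 12 libraries at once by quasi-likelihood, each group with its own mean. A call is a Benjamini-Hochberg adjusted p below 0.05 over 13236 genes, which also holds for every adjusted p quoted. CPM uses TMM library sizes, SE is the log2 fold change over the root of edgeR's F, and intervals are 95%. The edgeR steps were tested on simulated counts, which held no pairing of libraries and no deviations linked to transcript length. Alternatives were DESeq2 1.42.0, other scalings and filters, single libraries left out, a replicate block and a correction for transcript length, the last chosen after seeing the data, as was leaving out female replicates 1 and 3. Lengths and positions came from GENCODE vM21 (GRCm38), which held 23855 of the gene IDs, and promoters from RefSeq.

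Totals of 10646697 to 15983769 counts limit precision by counting error only. No replicates agreed within sampling noise (chi-square over its degrees of freedom 11.2 to 33.7). Replicate numbers come from the titles, and within a sex same-numbered libraries deviated together, with correlations of 0.302 to 0.706 (other numbers had -0.618 to -0.01). Over the members alone the ranges overlapped, at 0.033 to 0.879 for the same number and -0.85 to 0.363 for other numbers. The numbers may thus pair libraries, but what same-numbered libraries share was not tested. The main p-values, SE and intervals come from the fit without pairing, and the replicate block is quoted only where named. The members and lists were chosen with earlier results of these data known. Every member is counted. Named from other lists are up to 3 called genes with the largest change and at least 5 CPM, and called genes that moved against the rest.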

Additional observations from a re-analysis of the deposited data

How the results depend on the processing

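Over 21 settings, the direction of every RANKL response of the 40 genes stayed below 0. The count called lower over both sexes was 39 or 40 under each setting that kept more than 1 library in every group, with 39 to 40 when 1 library was left out. Leaving out female replicates 1 and 3 of both treatments, chosen after seeing the data, left 1 library in each female group. The median log2 fold changes were then -1.09 over both sexes and -1.05 in females. With 1 library left out, the count called lower was 37 to 39 in females and 38 in males. The median log2 fold change then ran from -1.12 to -1.03 over both sexes, from -1.06 to -0.98 in females and from -1.17 to -1.07 in males. With more than 1 library in every group, the calls lost were that of Bub1b over both sexes and those of Aurka and Cdc20 in females. The replicate block gave 40 genes lower over both sexes, 39 in females and 39 in males. It called Cdc20 in males (adjusted p = 0.0156), as did the length correction (adjusted p = 0.0256), and the block changed no other call. In the sex comparisons and the difference of responses 0 of the 40 genes were called under any setting. The median difference of responses was 0.01 to 0.15 with 1 library left out, lowest without male M-CSF replicate 3, where it was 0.012 against 0.11 with all libraries, and the number of genes above 0 ran from 23 to 35. In M-CSF that number was 24 to 37 with 1 library left out. With the longest transcript in place of merged exons, the median level per length was 43.2 with M-CSF+RANKL and 92.7 with M-CSF. By merged exons it was 39.6 with M-CSF+RANKL and 80.6 with M-CSF. The measures divide the same counts by different lengths. With 3 libraries a group, differences between the sexes of any size inside the intervals given are not excluded.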
